A study of Mus musculus with 6 samples.

Results

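TRIM proteins are a family of ubiquitin ligases, named for the tripartite motif of a RING finger, B-box zinc fingers and a coiled coil near the amino end. The RING finger passes ubiquitin, and in some members the ubiquitin-like ISG15 or SUMO, to a substrate that a variable carboxy-terminal domain, often a PRY-SPRY domain, selects. In macrophages the family is best known for binding viral particles and for setting the strength of the RIG-I, cGAS and interferon pathways, and many of its genes are interferon-stimulated. Members of the family with a PHD finger and bromodomain, Trim24, Trim28 and Trim33, act on chromatin instead.

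The genes described here are those whose symbol is Trim followed by a digit, each read from the probe set annotated to that symbol alone that had the highest mean over the arrays. There were 64 such genes, 1 of them the pseudogene Trim30e-ps1, among 22180 genes with a probe set of their own. A further 5 symbols (Trim5, Trim34b, Trim60, Trim61 and Trim65) occurred only on probe sets shared with another gene and have no value of their own.

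RNA came from macrophages grown for 7 days with M-CSF from bone marrow monocytes of 3 C57BL/KaLwRij mice and measured on 6 Mouse Gene 2.0 ST arrays. The macrophages shared their culture overnight with 5TGM1-luc, a mouse myeloma line, and then had 0.5 nM of an antibody to mouse CSF1R (3 arrays) or control IgG (3 arrays) for 3 days. CSF1R is the receptor for M-CSF, on which macrophages depend. Every culture, controls included, thus held myeloma cells, and 4 washes were made to remove them before RNA was taken. Markers of plasma cells and myeloma still gave signal on all arrays, and how much of the RNA came from myeloma cells was not tested. No arrays of macrophages alone are among the samples. The labels give no separate IgG dose. The labels do not say that replicate numbers stand for mice or separate cultures, so p-values rest on the spread among these arrays alone, and that spread may be technical.

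Values are log2 of the deposited probe set intensity, and a difference is the mean of the antibody arrays minus the mean of the IgG arrays, with limma's moderated standard error (SE). A gene is said to have risen or fallen where its limma p, adjusted by Benjamini-Hochberg over all 22180 genes, was under 0.05. As a guide to background, the means of 1390 genes for olfactory and vomeronasal receptors had a 95th percentile of 4.92, and 59.1% of all genes exceeded it in at least 1 group. Array medians ran from 4.88 to 4.95. With 3 arrays in each group, the number of arrays limits the precision.

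Of the 64 TRIM genes, 17 rose with the antibody, 8 fell and 39 did not pass the test. Calls in either direction were 39.1% of the family, beside 28.5% of all genes tested. Rises were 26.6% of the family, beside 12.5% of all genes, and falls were 12.5% of the family, beside 16.0% of all genes. The median difference was 0.05 over the family and -0.02 over all genes. At least 2-fold rises were seen for 5 TRIM genes, where 2.89% of all genes rose by that much. No TRIM gene fell 2-fold, which 0.0631% of all genes did, and the called falls kept to a narrow range of -0.47 to -0.36. In 21 members all antibody arrays lay above all IgG arrays, beside 16.6% of all genes, and in 10 members all lay below, beside 22.7% of all genes. In signal, 40 of the 64 members exceeded the guide in either group and 24 were below it in both. In such bulk RNA, fewer cells of a type and less RNA per cell cannot be told apart.

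**Figure D1:**
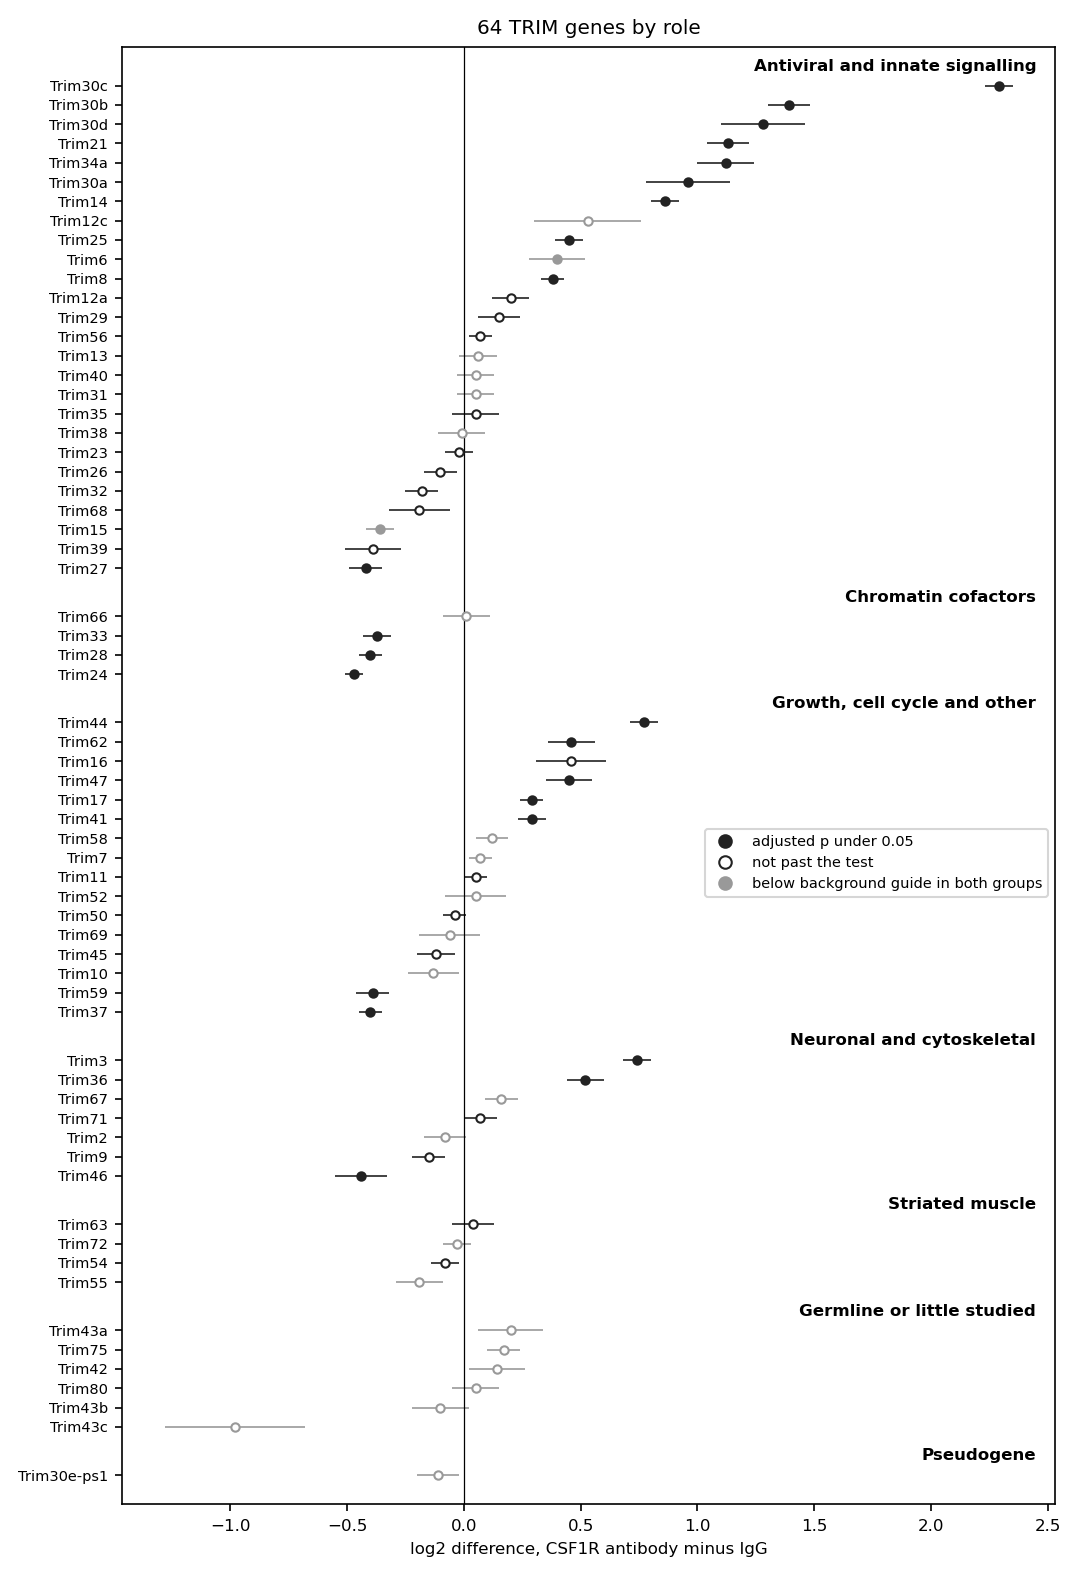
The log2 difference between CSF1R antibody and IgG arrays (horizontal axis) is drawn for each of the 64 TRIM genes, grouped by role, with bars of 1 SE, filled points past the test at an adjusted p under 0.05, and grey for genes below the background guide in both groups. The rises reach 2.29 for Trim30c, whereas the called falls lie between -0.47 and -0.36.

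Beside each role below, 12.5% of all genes tested rose and 16.0% fell. Of 26 antiviral and innate signalling members 10 rose and 2 fell, with a median difference of 0.11. The 4 chromatin cofactors held 3 falls and no rise, with a median of -0.38. Of 16 members linked to growth, cell cycle or other roles 5 rose and 2 fell, and of 7 neuronal and cytoskeletal members 2 rose and 1 fell. The falls in these roles, 12.5% and 14.3%, were near the share of all genes. The 4 striated muscle members and the 6 germline or little studied members held no call by limma, with 0 and 2 of them at an unadjusted p under 0.05. The lists overlap in function, since many TRIM proteins have several known substrates, and no difference between the groups was tested.

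**Figure D2:**
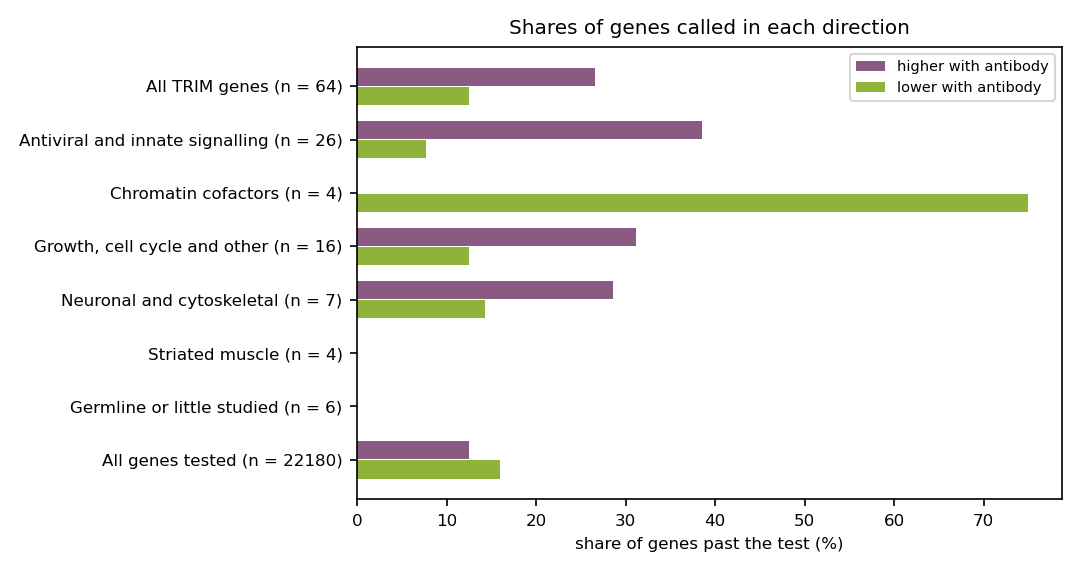
Bars give the share of genes, in percent, that were higher or lower with the antibody at an adjusted p under 0.05, in all 64 TRIM genes, in each role group and in all 22180 genes tested. Antiviral and innate members rose more often than they fell (10 and 2 of 26), and 3 of the 4 chromatin cofactors fell. Of all genes tested 12.5% rose and 16.0% fell.

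Of the 5 members that rose at least 2-fold, 4 (Trim30c, Trim30b, Trim30d and Trim34a) lay on chromosome 7 in a run of 11 TRIM genes whose starts lie less than 500 kb apart in the RefSeq annotation of GRCm38.p6. This run holds the mouse Trim30 genes, the Trim34 genes, Trim6 and the Trim5 and Trim12 genes, which are the mouse relatives of the primate retrovirus restriction factor TRIM5. Beside 12.5% of all genes tested that rose and 16.0% that fell, 6 of its 9 measured members rose and none fell. These genes are close copies of each other, so some of the probes of a copy may also bind RNA of the others; how much of each value is shared was not tested. Of the 7 probe sets shared by a TRIM symbol and another gene, 2 passed the test, both as rises of genes in this run. That count was near the 27.1% of all probe sets with several symbols that were called in either direction.

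Trim30c, a little studied copy, gave 9.07, 9.09 and 9.06 on the antibody arrays, against 6.85, 6.67 and 6.84 on the IgG arrays. All antibody arrays stood more than 2 log2 units above every IgG array, and the spread within each group was small. The difference of 2.29 (SE 0.06), or 4.88-fold, had an adjusted p of 8.1e-06 and was number 23 of all 22180 genes in order of rise. Trim30b gave 6.49, 6.84 and 6.62 with the antibody, against 5.26, 5.26 and 5.26 with IgG, where the values were exactly equal on the 3 arrays, as they were for 324 of all genes. The antibody arrays all lay higher, by 1.39 (SE 0.09) or 2.63-fold, with an adjusted p of 7.9e-05. The equal IgG values give no spread of their own, and the SE rests on the antibody arrays and on limma's shared variance.

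Trim30d read 9.08, 8.88 and 9.57 on the antibody arrays, against 7.71, 8.07 and 7.91 on the IgG arrays, a rise of 1.28 (SE 0.18) or 2.42-fold with an adjusted p of 0.0025. Trim30a, which in mice limits NF-kappaB activation by promoting the loss of TAB2 and TAB3, read 6.74, 6.50 and 7.25 with the antibody, against 5.87, 5.98 and 5.77 with IgG. Its rise was 0.96 (SE 0.18), or 1.94-fold, with an adjusted p of 0.0083. The groups of both genes were apart, but their antibody arrays were spread more widely than those of Trim30c, and antibody replicate 3 was the highest for each. In all, that array was the highest for 4 of the 6 members of the run that rose, with antibody replicate 2 the highest for the other 2. Antibody replicate 3 was also the highest antibody array for 6 of the 8 TRIM genes that fell, and for 3 of the 11 other members that rose.

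Trim34a, a copy related to human TRIM34, an interferon-induced partner of TRIM5, read 7.83, 8.02 and 8.29 with the antibody, against 7.0, 6.96 and 6.81 with IgG. It rose by 1.12 (SE 0.12), or 2.17-fold, with an adjusted p of 7.0e-04 and no overlap between groups. A second probe set of the gene, below the background guide, had means of 3.11 on antibody arrays and 2.80 on IgG arrays, a difference of 0.32 that was not called (adjusted p = 0.13, beside 27.7% of such probe sets called in either direction). With the mean of both probe sets the difference was 0.72. Trim6, which makes free ubiquitin chains that activate the kinase IKK-epsilon in human cells, read 4.41, 4.34 and 4.47 with the antibody, against 3.84, 4.28 and 3.91 with IgG. All 6 values were below the guide, the difference was 0.40 (SE 0.12) with an adjusted p of 0.046, and the call was lost without any of 5 of the 6 arrays (adjusted p from 0.089 to 0.15).

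The other measured genes of the run did not pass. Trim12a, well above the guide, gave 8.64, 8.68 and 8.88 with the antibody, against 8.45, 8.58 and 8.55 with IgG, a difference of 0.20 with an adjusted p of 0.11. Trim12c gave 4.20, 4.48 and 5.12 with the antibody, against 4.02, 3.96 and 4.24 with IgG, a difference of 0.53 that had an SE of 0.23 and an adjusted p of 0.15. Only antibody replicate 3 of Trim12c was above the guide. The pseudogene Trim30e-ps1 was below the guide on all arrays, at 2.83, 2.92 and 2.67 with the antibody, against 2.88, 2.81 and 3.06 with IgG. A predicted gene between the TRIM genes, Gm15133, was also below the guide in both groups and rose by 0.60 (adjusted p = 0.014). Of the 10 nearest measured genes on either side of the run (5 per side, most of them olfactory receptors) none passed the test by limma, beside 28.5% of all genes called. Their differences ran from -0.28 to 0.19, with 1 of them, Olfr653, at an unadjusted p under 0.05. All but Olfm5 were below the guide in both groups, so a call was unlikely, and they do not show where the rise ends.

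**Figure D3:**
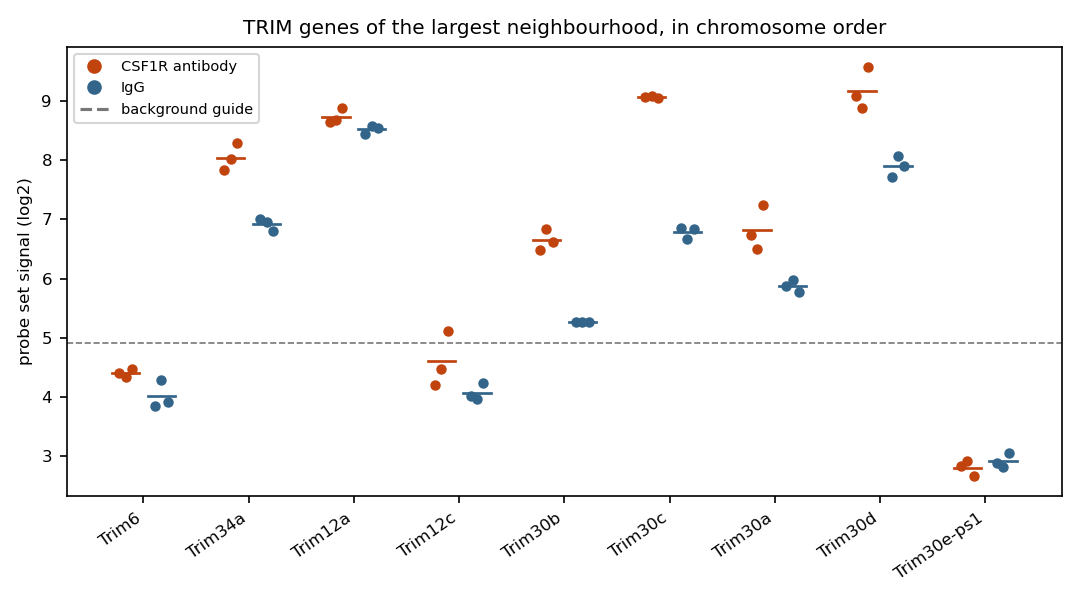
Log2 probe set signal on each of the 3 antibody arrays (left of each pair) and the 3 IgG arrays (right) is drawn for the 9 measured TRIM genes of the chromosome 7 run, in chromosome order, with group means as lines and the background guide of 4.92 dashed. The group means are at least 0.96 apart for Trim34a, Trim30b, Trim30c, Trim30a and Trim30d, and Trim6, Trim12c and Trim30e-ps1 have group means below the guide.

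Promoter sequences of 49 of the 64 members were found in a RefSeq table (GRCm38.p6) that gives 250 bases before and 50 after each gene's start. They were searched on both strands for the core of the interferon-stimulated response element, GAAA, any 2 bases and GAAA, and for the core of the gamma-activated site, TTC, any 3 bases and GAA. In the 250 bases before the start, the first core was found in 3.46% of 27025 genes and in 4 of the 49 TRIM genes (8.16%), namely Trim12c, Trim26, Trim30a and Trim30d. Over all 300 bases it was found in 3.99% of genes and in 8 TRIM genes (16.3%), with Trim12a, Trim2, Trim21 and Trim34a added. Of these, Trim12a, Trim12c, Trim30a, Trim30d and Trim34a lie in the chromosome 7 run of close copies, so their matches are not independent. Of the 12 members with a window that rose, 2 held this core before the start and 4 in the 300 bases. Of the 7 that fell 0 held it in either window. Of the 30 that did not pass, 2 held it before the start and 4 in the 300 bases. The window of 300 bases was added after the data were seen. The second core was found before the start in 8.13% of genes and in 5 TRIM genes (10.2%). Those were Trim30c, 1 of the 12 that rose, and Trim15 and Trim46, 2 of the 7 that fell. Trim31 and Trim45 were 2 of the 30 that did not pass. Over all 300 bases it was found in 9.55% of genes and in 6 TRIM genes (12.2%), with Trim38, which did not pass, added.

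The promoters of Trim30d, Trim30a and Trim30c are shown because they align, although only 2 of them hold the first core. That of Trim30b was not compared with them and is not shown. The Trim30c stretch is the one before an annotated start with the fewest differences from the Trim30d stretch. The stretches lie on the minus strand of chromosome 7, at chr7:104507855-104507904 for Trim30d, chr7:104465194-104465243 for Trim30a and chr7:104400880-104400929 for Trim30c. Capitals mark the core on its reverse strand, or the 10 bases that align with it:
Trim30d: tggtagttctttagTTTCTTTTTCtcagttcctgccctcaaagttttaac
Trim30a: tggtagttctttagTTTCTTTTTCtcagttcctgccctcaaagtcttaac
Trim30c: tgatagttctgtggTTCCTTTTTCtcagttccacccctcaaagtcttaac

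Counted from 1 at the left end of the Trim30d stretch, Trim30a differed by T45C alone and was 98.0% identical. Trim30c was 86.0% identical and differed by G3A, T11G, A13G, T17C, T33A, G34C and T45C. Of these, T17C falls in the core, at positions 15 to 24, so the letters of the core are not in the Trim30c stretch, although Trim30c had the largest rise of the 3 genes. The Trim30c stretch ends 102 bases before its annotated start, that of Trim30d 6 bases and that of Trim30a 1 base before theirs. A match is a description of these letters and not a shown binding site, and no match says only that they are not in this window.

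Trim21 and Trim34a, the other risen members with the first core, hold it just after the annotated start. At another annotated start of Trim30a, the core also lies from base 3 after the start. Trim12a, which did not pass the test, holds it at the same place as Trim34a, from base 11 after the start. The stretches are at chr7:102565450-102565479 for Trim21 (minus strand), chr7:104244457-104244486 for Trim34a (plus strand) and chr7:104315466-104315495 for Trim12a (minus strand). Capitals mark the core, for Trim21 a run of 2 overlapping matches:
Trim21: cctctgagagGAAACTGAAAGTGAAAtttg
Trim34a: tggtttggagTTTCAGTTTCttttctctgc
Trim12a: agagttgtggTTTCTGTTTCatttccagag

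Outside this run, 4 innate members rose: Trim21, Trim14, Trim25 and Trim8. Trim21, the cytosolic receptor for the Fc part of antibodies, which targets antibody-coated virus for degradation, read 8.57, 8.41 and 8.65 with the CSF1R antibody, against 7.51, 7.27 and 7.48 with IgG. The rise of 1.13 (SE 0.09), or 2.18-fold, had an adjusted p of 2.0e-04, and the groups did not overlap. Both groups had an antibody in the medium, so the comparison does not set antibody against none. The labels give no IgG dose, and the part of either antibody in the Trim21 values was not tested. Trim68, the neighbour of Trim21, read 6.79, 6.88 and 6.47 with the antibody, against 7.05, 6.91 and 6.75 with IgG, and did not pass (adjusted p = 0.34).

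Trim14, a member without a RING finger that works as an adaptor of MAVS at mitochondria and stabilises cGAS, read 8.76, 8.79 and 8.64 with the antibody, against 7.86, 7.85 and 7.92 with IgG. Its rise of 0.86 (SE 0.06), or 1.81-fold, had an adjusted p of 8.9e-05. Trim25, the ligase that adds ubiquitin to RIG-I and also transfers ISG15, read 10.47, 10.56 and 10.43 with the antibody, against 10.02, 10.10 and 9.99 with IgG. It rose by a smaller 0.45 (SE 0.06), 1.36-fold, with an adjusted p of 0.0015. Trim8, which acts on TAK1 in TNF and interleukin-1 signalling, read 9.64, 9.62 and 9.57 with the antibody, against 9.19, 9.20 and 9.30 with IgG, a rise of 0.38 (SE 0.05, adjusted p = 0.002). In each of Trim14, Trim25 and Trim8 the groups did not overlap.

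The 2 innate members that fell were Trim27 and Trim15. Trim27, a ligase and transcriptional repressor, read 8.78, 8.98 and 9.02 with the antibody, against 9.33, 9.33 and 9.39 with IgG, and fell by 0.42 (SE 0.07, adjusted p = 0.0055). A second Trim27 probe set also fell by 0.54 (adjusted p = 0.012). Trim15 read 4.41, 4.58 and 4.50 with the antibody, against 4.80, 4.90 and 4.88 with IgG, all below the guide, for a difference of -0.36 (SE 0.06, adjusted p = 0.0045). Trim15 lies on chromosome 17 in a run of 5 TRIM genes with Trim26, Trim10, Trim40 and Trim31. None of these 5 rose, beside 12.5% of all genes tested.

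Several innate members with a clear signal did not pass. Trim56, a regulator of cGAS and STING, read 7.72, 7.85 and 7.72 with the antibody, against 7.69, 7.69 and 7.69 with IgG (0.07, adjusted p = 0.4). Trim26 read 8.86, 8.92 and 8.71 with the antibody, against 8.94, 8.87 and 8.98 with IgG (adjusted p = 0.36). Trim35, which acts on IRF7, read 7.03, 6.85 and 7.21 with the antibody, against 7.02, 6.88 and 7.04 with IgG (adjusted p = 0.79). The groups of Trim26 and Trim35 overlapped. Trim23, a member with an ARF-type GTPase domain, read 6.80, 6.86 and 6.86 with the antibody, against 6.95, 6.78 and 6.86 with IgG (adjusted p = 0.83). Trim32, a ligase of muscle proteins and of STING, read 7.42, 7.33 and 7.31 with the antibody, against 7.66, 7.42 and 7.51 with IgG (adjusted p = 0.13). Trim29 read 5.26, 4.99 and 5.07 with the antibody, against 5.07, 4.85 and 4.94 with IgG (adjusted p = 0.29). Trim39, which stabilises the apoptosis factor MOAP1, read 6.59, 6.68 and 6.91 with the antibody, against 7.06, 6.94 and 7.34 with IgG. Its groups did not overlap, and its difference of -0.39 did not pass (adjusted p = 0.062). A p above the threshold does not show that these genes were alike in both groups.

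Of the 4 chromatin cofactors, 3 fell, with differences between -0.47 and -0.37, beside 16.0% of all genes tested that fell. Trim24, a bromodomain reader and nuclear receptor cofactor, read 9.13, 9.11 and 9.14 with the antibody, against 9.62, 9.60 and 9.58 with IgG, and fell by 0.47 (SE 0.04) with an adjusted p of 3.7e-04. Trim28, also called KAP1, the corepressor that KRAB zinc finger proteins bring to retroelements, read 9.79, 9.82 and 9.87 with the antibody, against 10.28, 10.17 and 10.23 with IgG, and fell by 0.40 (SE 0.05, adjusted p = 0.0016). Trim33, which binds Smad proteins and acts as a ligase of Smad4, read 7.95, 8.02 and 8.14 with the antibody, against 8.37, 8.43 and 8.41 with IgG, and fell by 0.37 (SE 0.06, adjusted p = 0.0045). For these 3 genes no antibody array reached an IgG array, and the antibody signal was 1.38-fold, 1.32-fold and 1.29-fold lower for Trim24, Trim28 and Trim33. The remaining cofactor, Trim66, known from testis, was below the guide in both groups with a difference of 0.01 (adjusted p = 0.97).

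**Figure D4:**
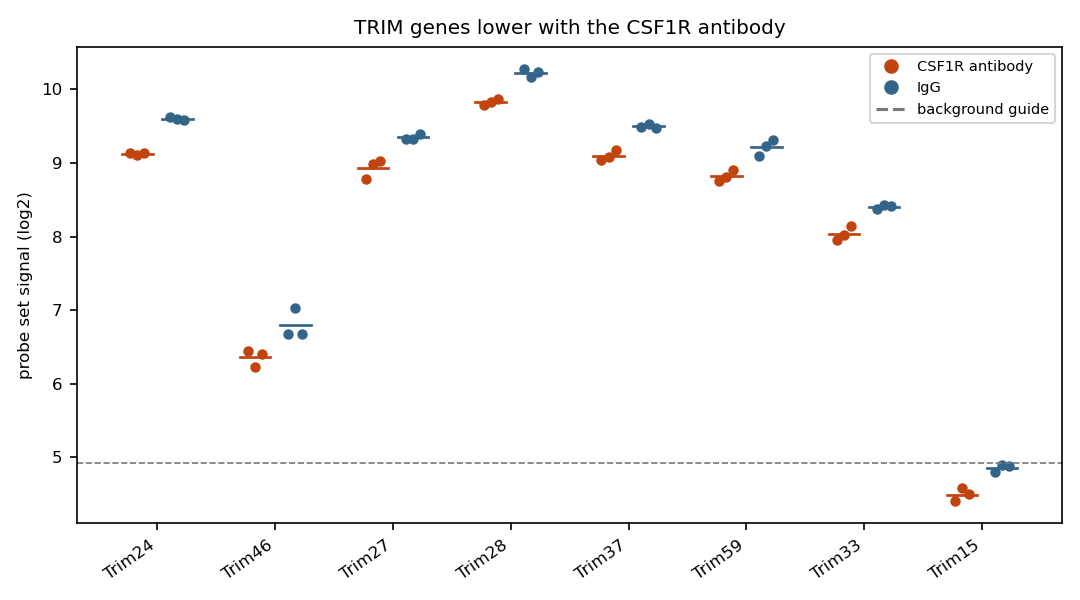
Log2 probe set signal on each of the 3 antibody arrays (left of each pair) and the 3 IgG arrays (right) is drawn for the 8 TRIM genes that fell, with group means as lines and the background guide of 4.92 dashed. In each gene every antibody array lies below every IgG array, and Trim15 lies below the guide.

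Among the members linked to growth, cell cycle and other roles, Trim44 changed most. Trim44 has a B-box but no RING finger and protects other proteins from degradation; it read 7.62, 7.58 and 7.53 with the antibody, against 6.71, 6.86 and 6.86 with IgG, a rise of 0.77 (SE 0.06), or 1.7-fold, with an adjusted p of 1.8e-04. Trim62, which adds ubiquitin to CARD9 downstream of fungal receptors, read 5.96, 5.98 and 5.64 with the antibody, against 5.33, 5.46 and 5.40 with IgG, a rise of 0.46 (SE 0.10, adjusted p = 0.013). Trim47 read 6.45, 6.41 and 6.28 with the antibody, against 6.0, 5.73 and 6.07 with IgG, a rise of 0.45 (SE 0.10, adjusted p = 0.016). The groups did not overlap, but single arrays decided both calls. Trim62 missed the threshold without antibody replicate 1 (adjusted p = 0.052) or IgG replicate 1 (0.057), and Trim47 without antibody replicate 1 (0.061) or 2 (0.058). A stronger probe set, annotated to both Trim65 and Trim47, had means of 7.75 with the antibody and 7.57 with IgG. Its difference of 0.18 did not pass (limma adjusted p = 0.11, over all probe sets with a symbol).

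Trim17, known for promoting neuronal apoptosis through MCL1, read 5.75, 5.85 and 5.81 with the antibody, against 5.49, 5.53 and 5.51 with IgG, a rise of 0.29 (adjusted p = 0.0042). Trim41 read 7.95, 7.89 and 8.06 with the antibody, against 7.71, 7.64 and 7.69 with IgG, a rise of 0.29 (adjusted p = 0.011). Both rises were small, with no overlap between groups. The members of this role that fell were Trim37 and Trim59. Trim37, a ligase that limits centrosome assembly and is lost in human mulibrey nanism, read 9.04, 9.08 and 9.18 with the antibody, against 9.49, 9.53 and 9.47 with IgG, and fell by 0.40 (SE 0.05, adjusted p = 0.0019). Trim59, a membrane-bound member often raised in tumours, read 8.75, 8.81 and 8.91 with the antibody, against 9.09, 9.23 and 9.31 with IgG, and fell by 0.39 (SE 0.07, adjusted p = 0.0077).

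Trim16, which with galectin-3 marks damaged lysosomes for autophagy, had as large a difference as Trim62 but a wider spread, at 5.52, 5.39 and 5.52 with the antibody, against 5.05, 5.29 and 4.69 with IgG (0.46, SE 0.15, adjusted p = 0.058). Trim11 read 7.87, 7.79 and 7.79 with the antibody, against 7.75, 7.75 and 7.80 with IgG (adjusted p = 0.48). Trim45 read 5.28, 5.28 and 5.32 with the antibody, against 5.26, 5.57 and 5.40 with IgG (adjusted p = 0.37). Trim50, a member of gastric parietal cells, read 5.06, 4.95 and 5.06 with the antibody, against 5.06, 5.06 and 5.05 with IgG (adjusted p = 0.69). None of these 4 passed the test, with limma's unadjusted p under 0.05 for 1 of them.

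Of the neuronal and cytoskeletal members, Trim3, an endosomal ligase studied in neurons, read 8.51, 8.59 and 8.51 with the antibody, against 7.72, 7.79 and 7.89 with IgG. It rose by 0.74 (SE 0.06), or 1.67-fold, with an adjusted p of 2.2e-04. Trim36, a microtubule-binding ligase, lay close to the guide at 5.40, 5.50 and 5.59 with the antibody, against 5.08, 4.97 and 4.87 with IgG, and rose by 0.52 (SE 0.08, adjusted p = 0.0027). Trim46, which organises microtubules at the start of the axon, read 6.45, 6.23 and 6.40 with the antibody, against 6.68, 7.03 and 6.68 with IgG, and fell by 0.44 (SE 0.11, adjusted p = 0.029). The fall of Trim46 missed the threshold without antibody replicate 1 (adjusted p = 0.056), 2 (0.095) or 3 (0.071) and after cyclic loess scaling (0.051). Trim9 read 4.86, 4.69 and 4.86 with the antibody, against 4.86, 5.02 and 4.98 with IgG (adjusted p = 0.2), and Trim71, a regulator of let-7 targets in stem cells, 5.75, 5.67 and 5.72 with the antibody, against 5.53, 5.69 and 5.72 with IgG (adjusted p = 0.53). The groups of Trim71 overlapped, and neither gene passed.

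The muscle ligases gave values near the guide and no call. Trim63, also called MuRF1, which drives the loss of muscle protein in wasting, read 5.33, 5.59 and 5.48 with the antibody, against 5.58, 5.32 and 5.38 with IgG (adjusted p = 0.81). Trim54 (MuRF3) read 5.85, 5.65 and 5.72 with the antibody, against 5.85, 5.85 and 5.78 with IgG (adjusted p = 0.4). A second Trim54 probe set, below the guide, did not pass either (adjusted p = 0.21). Trim55 and Trim72 were below the guide in both groups.

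In all, 22 members did not pass and were below the guide in both groups, with differences from -0.98 to 0.53. The lowest of them was Trim43c, of a germline gene group on chromosome 9, which read 4.27, 3.96 and 3.11 with the antibody, against 5.06, 4.51 and 4.70 with IgG, with an SE of 0.30 and an adjusted p of 0.056. Its groups did not overlap, and its neighbours Trim43a and Trim43b had differences of 0.20 and -0.10. Trim43c was singled out after its values were seen. Trim31 had exactly equal values of 3.82 on the IgG arrays. Trim38 and Trim13, innate regulators in other settings, were among these low members, with differences of -0.01 and 0.06.

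All 5 genes of ISG15 conjugation rose, with a median of 1.28: the protease Usp18 by 1.46, the modifier Isg15 by 1.40, its activating enzyme Uba7 by 1.28, its conjugating enzyme Ube2l6 by 1.20 and the ligase Herc6 by 1.16. Beside this and the following lists, 12.5% of all genes tested rose and 16.0% fell. Of 17 genes of RIG-I, cGAS and STING signalling 9 rose and 2 fell, with a median of 0.17. The rises were led by Ifih1 (MDA5) at 1.67, Dhx58 (LGP2) at 1.52, the kinase Ikbke at 1.48 and Ddx58 (RIG-I itself, a substrate of TRIM25) at 1.39. The falls were Map3k7, the gene of TAK1, at -0.39 and Tab3 at -0.17 (adjusted p = 0.045), while Tab2 rose by 0.33 (limma adjusted p = 0.0025). The list held 1 fall without antibody replicate 1, 2 or 3 or IgG replicate 1, with the replicate block, after cyclic loess scaling and with arrays centred on their medians. Of 10 interferon receptors and factors 7 rose and none fell, with a median of 0.78, among them Jak1 at 1.33, Stat2 at 1.24, Irf1 at 1.10 and Ifngr1 at 1.06. Of 5 TRIM proteins with other symbols Mid1 rose by 0.95, Mefv, the pyrin gene, by 0.62 while below the guide in both groups, and Pml by 0.57, and none fell.

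Partners of the chromatin members were listed too, beside 12.5% of all genes tested that rose and 16.0% that fell. Of 11 genes of TRIM28-dependent silencing 7 fell and none rose, with a median of -0.21, led by Morc2a at -0.41 and the heterochromatin protein genes Cbx5 at -0.40 and Cbx1 at -0.36. After cyclic loess scaling the list held 3 falls and no rise. Of 6 Smad and TRIM33 partners Smad1 rose by 0.65 and Smad5 and Smad4 fell, with differences of -0.29 and -0.18. This list held 1 fall without antibody replicate 1 or 2 or IgG replicate 2 and with the replicate block, and 1 fall and 2 rises after cyclic loess scaling. Of 24 ubiquitin activating and conjugating enzymes 3 rose and 8 fell, with a median of -0.14, and the share of rises was near that of all genes. Ube2d1, a conjugating enzyme that many RING ligases use, rose by 1.62, while the mitotic enzymes Ube2c and Ube2s and Ube2t, of the Fanconi pathway, fell, with differences of -0.56, -0.46 and -0.66. After cyclic loess scaling this list held 5 falls and 3 rises.

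**Figure D5:**
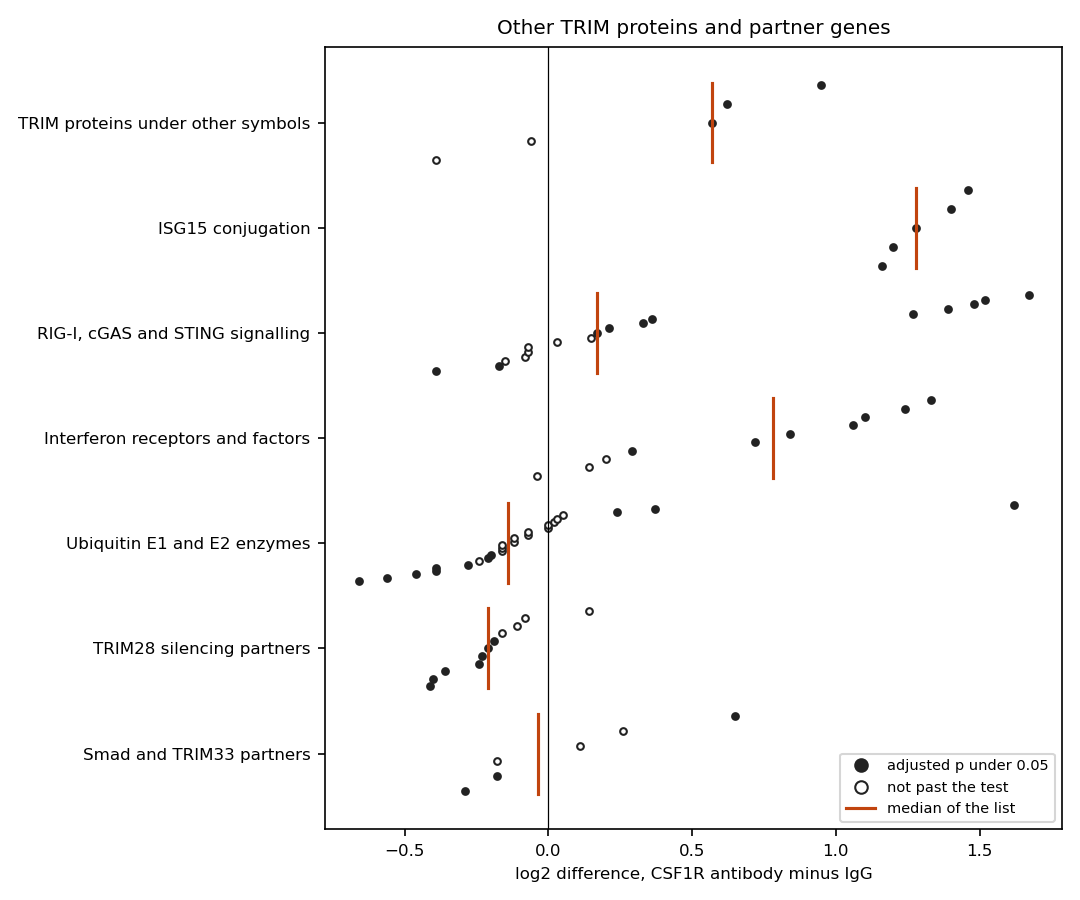
The log2 difference between CSF1R antibody and IgG arrays (horizontal axis) is drawn for each gene of 7 lists of TRIM-related genes, with filled points past the test at an adjusted p under 0.05 and a line at each list's median. All 5 ISG15 conjugation genes lie above 1.1, and 7 of the 11 TRIM28 silencing partners lie below 0 and pass.

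Markers of the cells in these cultures moved with the antibody too, beside 12.5% of all genes tested that rose and 16.0% that fell. Of 9 macrophage markers 8 rose and none fell, and their summed intensity ran from 20900 to 21600 on the antibody arrays and from 11500 to 11800 on the IgG arrays; only Cd163 was below the guide. Of 10 plasma cell and myeloma markers 6 fell and 1 rose, with sums of 19900 to 21700 on the antibody arrays and 22900 to 23400 on the IgG arrays, and Tnfrsf17 below the guide. All 7 dividing cell markers fell, with sums of 4570 to 4910 on the antibody arrays and 6630 to 6800 on the IgG arrays. Of 8 stromal markers 7 fell, with sums of 1110 to 1160 on the antibody arrays and 2120 to 2170 on the IgG arrays. Macrophage markers thus moved in the direction of the risen TRIM genes, and myeloma, stromal and dividing cell markers in that of the fallen ones; their part in these results was not tested. Of 7 T and NK cell markers 6 were below the guide, as were 7 of 8 granulocyte markers. Cd4, the remaining marker of the T and NK cell list, rose by 2.00. The only erythroid marker measured, Klf1, was below the guide.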

How the data were processed

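Each deposited value is the linear intensity of a probe set. The submitters' processing notes name RMA and limma without versions or roles. RMA usually gives every array the same distribution of values, so a shift of most genes in the same direction would be hidden. The genome build and the level at which probes were summed are both not given in the sources used here. Values were taken as log2, with no filter. Of 41345 probe sets, 23521 had 1 gene symbol in the platform annotation, 1814 had several and 16010 had none, and gene names came from the first kind. Of these, 99.2% had an Entrez identifier in the RefSeq table (GRCm38.p6, used for names, neighbours and promoters), and 0 symbols changed. No arrays were copies of each other.

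Group differences of 22180 genes were fitted by lmFit and eBayes of limma 3.58.1 under R 4.3.3 (Benjamini-Hochberg, threshold 0.05), after the script was tested on simulated data; other tables and plots used Python 3.11.15 and matplotlib 3.10.9. TRIM genes past the test, and others above the background guide, were given on every array. From each other list up to 4 genes with the largest called change were named, and Herc6, Map3k7, Tab2 and Tab3 were added after their values were seen. The promoter stretches were chosen after the sequences were seen and are more than the 3 first planned. Those of Trim30d, Trim30a and Trim30c were chosen because they align, and those of Trim21, Trim34a and Trim12a for their matches. The members, lists and guide were chosen with earlier results of these data known. Alternatives were variance settings, scalings, filters, a floor at the guide, thresholds, averaging the probe sets of a gene, a replicate block and each array left out in turn. A test of only the genes above the guide and the promoter window of 300 bases were added after the data were seen.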

Additional observations from a re-analysis of the deposited data

Results flagged for a closer look

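Of 7 probe sets shared by a TRIM symbol and another gene, which gave no value to any gene above, 2 were higher with the antibody and none was lower, beside 27.1% of the 1814 probe sets with several symbols that passed in either direction. The count of 2 in 7 was near that share, and no share for rises alone is given. The 2 that passed drew attention because they hold signal that the comparisons by gene did not use. The probe set annotated to both Trim34a and Trim34b read 6.80, 7.05 and 7.17 with the antibody, against 6.13, 5.93 and 5.87 with IgG, a difference of 1.03 (adjusted p = 8.7e-04 by limma, adjusted over all 25335 probe sets with a symbol). A probe set annotated to both Trim12c and Trim5 read 6.71, 6.80 and 6.80 with the antibody, against 6.02, 6.0 and 6.19 with IgG, a difference of 0.70 (adjusted p = 4.9e-04). A second probe set with the same symbols was below the guide and did not pass (-0.11, adjusted p = 0.67). In both that passed, the groups did not overlap, and which gene of each pair gave the signal cannot be told apart.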

How the results depend on the processing

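The 17 rises and 8 falls of TRIM genes, and the 2766 rises and 3548 falls of all genes, stayed within 1.5 times of these counts except at stricter thresholds: with a 2-fold minimum 5 TRIM genes rose and 0 fell, and 641 of all genes rose and 14 fell, and at an adjusted p under 0.01 the falls of all genes numbered 2232. No difference of a called gene changed sign. Leaving out each array in turn gave 14 to 18 rises and 7 to 9 falls of TRIM genes, and 2439 to 2620 rises and 2839 to 3425 falls of all genes; 21 of the 25 TRIM calls were kept without each array. Cyclic loess made 57.7% of called genes rises, against 43.8% without it, and gave 19 rises and 8 falls of TRIM genes, with Trim46 lost and Trim12a (0.32, adjusted p = 0.014), Trim16 (0.48, 0.046) and Trim43c (-0.97, 0.05) gained. Same-numbered antibody and IgG arrays shared no clear deviation (correlations 0.031, -0.053 and 0.003), which does not settle whether the numbers pair the samples. With the replicate block 16 TRIM genes rose and 9 fell, as did 2569 and 2980 of all genes. The block lost Trim6 (adjusted p = 0.076) and Trim46 (0.073) and gained falls of Trim39 (0.015) and Trim43c (0.029). With a floor at the guide, Trim47, Trim6, Trim15 and Trim46 lost their calls. The causes of these shifts were not tested. Signals near the guide bound what can be read from the 24 members below it.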
